A study of Homo sapiens with 12 samples.

Results

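The m6A peaks of 8 immediate early genes were examined in H460 cells, an established line of human large cell lung cancer: JUN, JUNB, JUND, FOS, EGR1, KLF6, IER2 and IER5. They were chosen by symbol, with earlier results of these data known. Every peak interval that shared at least 1 bp with the hg19 window of a gene on the same strand was assigned to that gene. This gave 45 intervals of the 53502 in the 6 deposited peak lists. The peaks come from MeRIP-seq, in which RNA fragments that carry N6-methyladenosine (m6A) are pulled down with an antibody (IP) and sequenced beside an input library. The labels describe 12 libraries, 3 in each of 4 groups: IP and input of cells given 100 nM rapamycin for 24 h to induce autophagy, and IP and input of cells without treatment. All come from wild-type H460 cells, from total RNA depleted of ribosomal RNA, and no label says whether replicates were separate cultures.

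The 6 lists could not be put in treatment arms. They are called A to F here. The GEO record ties all of them to libraries of untreated cells, input and IP alternating, whereas by name A, B and C are con lists and D, E and F are rapamycin lists. Rapamycin-treated and untreated cells were therefore not compared, and no test was made between lists. Each list gives 1 value per gene without replicates. The lists differ in length, from 4530 intervals in E to 14908 in B, and the sequencing depth behind them is unknown. They also hold no expression levels, so a transcript without m6A and a transcript too scarce to give a peak cannot be told apart.

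Immediate early genes are transcribed within minutes of a growth factor or stress signal, without new protein synthesis, and their mRNAs are short-lived. JUN, JUNB and JUND encode the Jun proteins of the transcription factor AP-1, in which they pair with each other or with FOS. EGR1 and KLF6 encode zinc finger transcription factors. IER2 and IER5 encode nuclear proteins induced by the same kinds of signal. m6A is written on mRNA by the METTL3 and METTL14 complex, is often found in long exons and near stop codons, and can be bound by YTH proteins that shorten the life of the mRNA.

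The DNA just before the start of the genes is shown first for 4 members, because they span the range of the results below. The JUN and JUND windows held an interval in every list, EGR1 in 3 lists and FOS in 1. The sequences are the 250 bases before the RefSeq gene start on build GRCh38.p14, written 5′ to 3′ on the strand of the gene: chr1:58784048-58784297 (- strand) for JUN, chr19:18281623-18281872 (- strand) for JUND, chr14:75278578-75278827 (+ strand) for FOS and chr5:138465229-138465478 (+ strand) for EGR1. Capitals mark matches to the CArG box, the element bound by serum response factor, and to TGACG on either strand, the core of the site bound by CREB and ATF proteins (CGTCA where it lies on the other strand).
JUN: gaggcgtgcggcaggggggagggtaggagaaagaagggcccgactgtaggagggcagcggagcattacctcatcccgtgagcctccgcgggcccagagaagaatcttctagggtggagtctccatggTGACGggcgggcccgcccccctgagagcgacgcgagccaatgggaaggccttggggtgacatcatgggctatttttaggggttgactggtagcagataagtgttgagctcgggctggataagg
JUND: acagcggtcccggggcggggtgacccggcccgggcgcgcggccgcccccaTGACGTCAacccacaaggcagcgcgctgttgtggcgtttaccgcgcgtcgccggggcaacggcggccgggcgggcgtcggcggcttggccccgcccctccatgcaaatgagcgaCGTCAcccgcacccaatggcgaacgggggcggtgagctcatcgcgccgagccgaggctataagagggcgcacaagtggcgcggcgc
FOS: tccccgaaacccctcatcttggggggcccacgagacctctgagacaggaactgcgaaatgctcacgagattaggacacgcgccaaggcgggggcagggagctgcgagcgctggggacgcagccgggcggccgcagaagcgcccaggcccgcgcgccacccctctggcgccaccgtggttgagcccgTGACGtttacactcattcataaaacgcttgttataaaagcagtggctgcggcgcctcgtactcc
EGR1: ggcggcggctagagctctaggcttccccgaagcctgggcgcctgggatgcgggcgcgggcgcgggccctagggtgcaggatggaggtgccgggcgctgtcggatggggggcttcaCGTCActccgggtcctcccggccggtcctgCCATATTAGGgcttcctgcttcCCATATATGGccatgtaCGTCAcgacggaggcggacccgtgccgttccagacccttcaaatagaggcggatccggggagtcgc

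All 8 genes matched an entry of the RefSeq promoter table. Only EGR1 held a CArG box in this window, with 2 copies that begin at positions -105 and -83 from the start. Of all 35116 promoters of the table, taken without selecting gene types, 1.16% hold one there. Bases further upstream were not searched, so a CArG box beyond this window would be missed in any of the genes. TGACG on either strand was found in 6 of the 8 genes (JUN, JUNB, JUND, FOS, EGR1 and IER2) and in 21.2% of all promoters. In JUND it occurred in both directions within the single palindrome TGACGTCA, where both matches overlap, and once more on the other strand. TATAA on either strand was found in FOS, JUNB, JUND and IER5, against 18.9% of all promoters. The GC content of these 250 bases ran from 62.0% (JUN) to 74.8% (JUND) in the 8 genes, against a median of 58.0% over all promoters. Whether GC content bears on the motif shares was not tested. The same table was searched on the sense strand for 5 short strings that often surround m6A. In the first 50 transcribed bases, GGACC occurred in JUNB and IER5 (5.39% of all promoters), AGACT in FOS (4.23%), while none of the 8 genes held GGACT (4.90%) or the string GGACA (4.86%) or AAACT (3.38%). An entry has 300 bases, of which 250 lie before the gene start and outside the transcript. Over all 300, GGACT was found in IER5 (25.3% of all promoters) and GGACA in FOS, JUNB and IER2 (25.4%). GGACC was found in JUNB, EGR1, IER2 and IER5 (27.1%), AGACT in FOS (21.0%) and AAACT in none (22.4%). Of these matches, only GGACC in JUNB and IER5 and AGACT in FOS began after the gene start. These matches describe letters only. The sequence under the hg19 intervals was not analysed here, so whether the intervals hold m6A motifs was not checked.

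Of the 8 genes, 6 had an interval in all 6 lists: JUN, JUNB, JUND, IER2, IER5 and KLF6. EGR1 had an interval in lists A, B and C, and FOS in list C. The count was 5 under each of 2 stricter settings: KLF6 was in 3 lists when only intervals scoring at least the median over all lists (260.4) were kept and in 5 lists when every list was cut to 4530 intervals, and FOS was in none under either. Of the 48 combinations of gene and list, 40 thus held at least 1 interval. When intervals of all lists that overlap on a strand were joined, the 45 intervals formed 9 regions, 2 of them in KLF6 and 1 in each other gene. All 6 lists held 6 of these 9 regions, against 8.30% of the 20742 joined regions of the whole series. Of the regions of these genes that span at least 1000 bp, 5 of 8 were in all lists, against 16.1% of all regions of that width; the remaining one, the 5′ region of KLF6 with 369 bp, was in all lists too. No test was made of either difference. Because the genes were chosen with earlier results of these data known, both comparisons are description only.

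**Figure D1:**
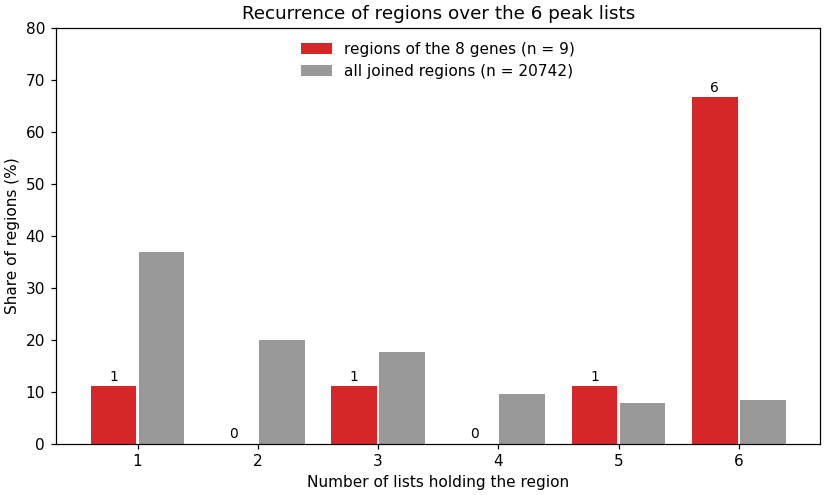
Share of joined regions (y axis, percent) by the number of peak lists that hold them (x axis), for the 9 regions of the immediate early genes (red, left, with their number above the bar) and for all 20742 regions (grey, right). The red bar at 6 lists stands for 6 regions, and the grey bar there is 8.30%.

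The authors' deposited score is 1 value per peak on an unstated scale, so it was used as a rank within a list. Each gene's highest score was expressed as a percentile among all intervals of its list, ties sharing their mean rank. Scores pile up at 3100, below the highest score of each list, which ran from 3203.81 in E to 3233.06 in A, B and C. Peaks at 3100 cannot be ranked among themselves. Their shared percentile was 98.0 for list A, 93.9 for list B, 94.8 for list C, 99.2 for lists D and E and 99.4 for list F. It differs because the share of all intervals at or above 3100 differs, being 3.74% for list A, 11.8% for list B, 10.0% for list C, 1.47% for list D, 1.57% for list E and 1.10% for list F.

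JUN, JUNB, JUND, IER2 and IER5 stood at percentile 87.8 or above in all 6 lists, while KLF6, EGR1 and FOS had lower values, given below. In list A, 4 of the 8 intervals of the 8 genes were at 3100, and in list B 5 of 8. List C had 6 of 9, list D 4 of 7, list E 5 of 7 and list F 3 of 6. Of the 45 intervals, 39 were 1000 bp or more wide, against 28.0% of all intervals for lists A and B, 34.0% for C, 42.2% for D, 41.6% for E and 34.4% for F. In that width class the shares of all intervals at or above 3100 were 6.91% for list A, 25.4% for list B, 19.7% for list C, 1.91% for each of D and E and 1.48% for list F. Of all intervals that reached 3100, the genes supplied 4 of 450 for list A, 5 of 1752 for list B, 6 of 1232 for list C, 4 of 71 for list D, 5 of 71 for list E and 3 of 54 for list F. The median over the 8 genes of the highest percentile, with 0 where a list held no interval, lay between 93.1 (F) and 99.2 (E).

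**Figure D2:**
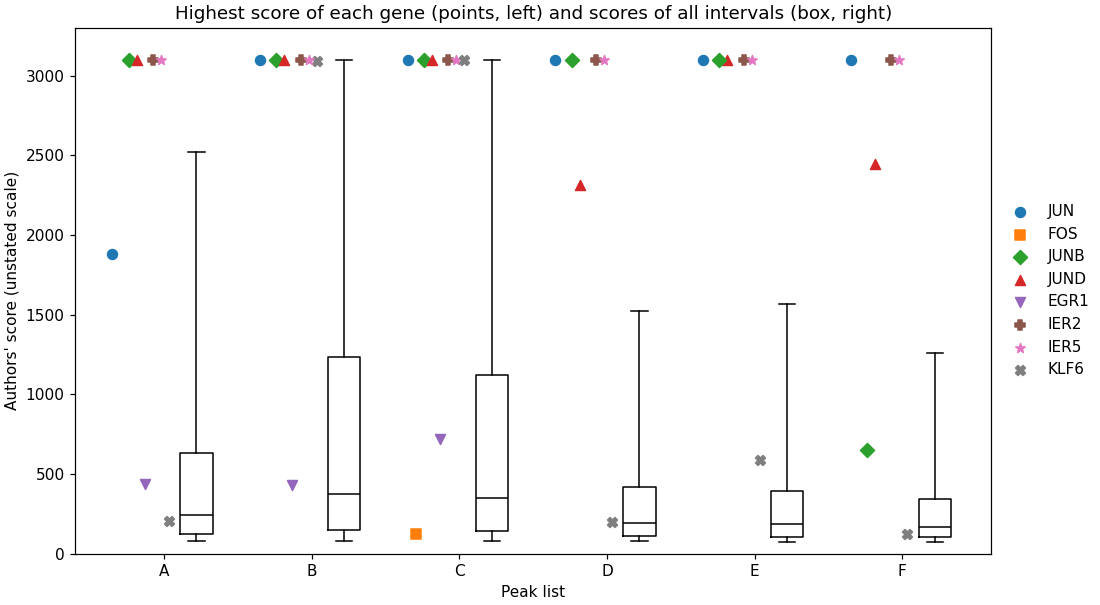
Authors' score (y axis, linear, scale not stated) in peak lists A to F (x axis). Points to the left are the highest score of each immediate early gene that the list holds, and boxes to the right show all intervals of the list (median, quartiles, whiskers at the 5th and 95th percentiles). JUN, JUNB, JUND, IER2 and IER5 sit at or near 3100 in most lists, while KLF6 ranges from 121.7 in F to 3100 in C and EGR1 appears only in A, B and C.

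IER5 was at 3100 in every list. Its window, chr1:181057638-181059979 on the plus strand, is 2342 bp long. The interval filled it completely in A, E and F. It began 43 bases into the window in D, 166 in B and 172 in C, and it ended exactly at the 3′ end of the window in all 6 lists. The 5′ boundary therefore varied and the 3′ boundary did not, and 92.7% of the window was common to all lists.

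IER2 was also at 3100 in every list. Its window is chr19:13261282-13265718 on the plus strand. In A, B, C, D and E the interval was identical, from 13262789 to 13265722 (2934 bp), and in F it began at 13262832 and ended at the same base (2891 bp). It ended 4 bp past the window, and no list held an interval over the window before base 1508. Only 23 of the 1722 regions held by all lists, 1.34%, were at 3100 or above in each list, and IER2 and IER5 are 2 of them.

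JUND and JUNB each had the same interval in all 6 lists. For JUND it was the whole window of 1963 bp (chr19:18390504-18392466, minus strand). Its score was 3100 in A, B, C and E, 2314.74 in D and 2442.37 in F, which are percentiles of 97.2 in D and 98.4 in F. For JUNB it was the whole window of 1816 bp (chr19:12902310-12904125, plus strand). Its score was 3100 in A, B, C, D and E and 650.25 in F, at percentile 87.8. JUNB in F was thus the lowest value of either gene. Equal boundaries were common beyond these genes: of the 1722 regions held by all lists, 57.0% had the same boundaries in every list. Among the 6 regions of these genes held by all lists, those of JUNB and JUND were the 2 for which this was so. The EGR1 region, held by 3 lists, and the longer KLF6 region, held by 5, also had unequal boundaries.

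JUN, the founding member of the family, scored 3100 in B, C, D, E and F and 1880.99 in A, where it stood at percentile 92.6. Its window is chr1:59246463-59249785 on the minus strand, 3323 bp long. The interval filled it in D, E and F. It spanned bases 1 to 2863 from the 5′ end in B, 71 to 2705 in C and 70 to 2461 in A. The bases at the 3′ end of the window were thus covered in D, E and F and left out in A, B and C. Both boundaries of JUN varied between lists. The 2391 bp common to all lists made up 72.0% of the JUN window. JUN, JUNB, JUND and IER5 are intronless genes, and theirs were the 4 windows that an interval of some list filled from end to end. In 5 of the 8 windows, an interval of some list stopped exactly at a window end. Whether intervals were cut at annotated gene ends was not tested, so a fixed boundary need not mark where enrichment ended.

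**Figure D3:**
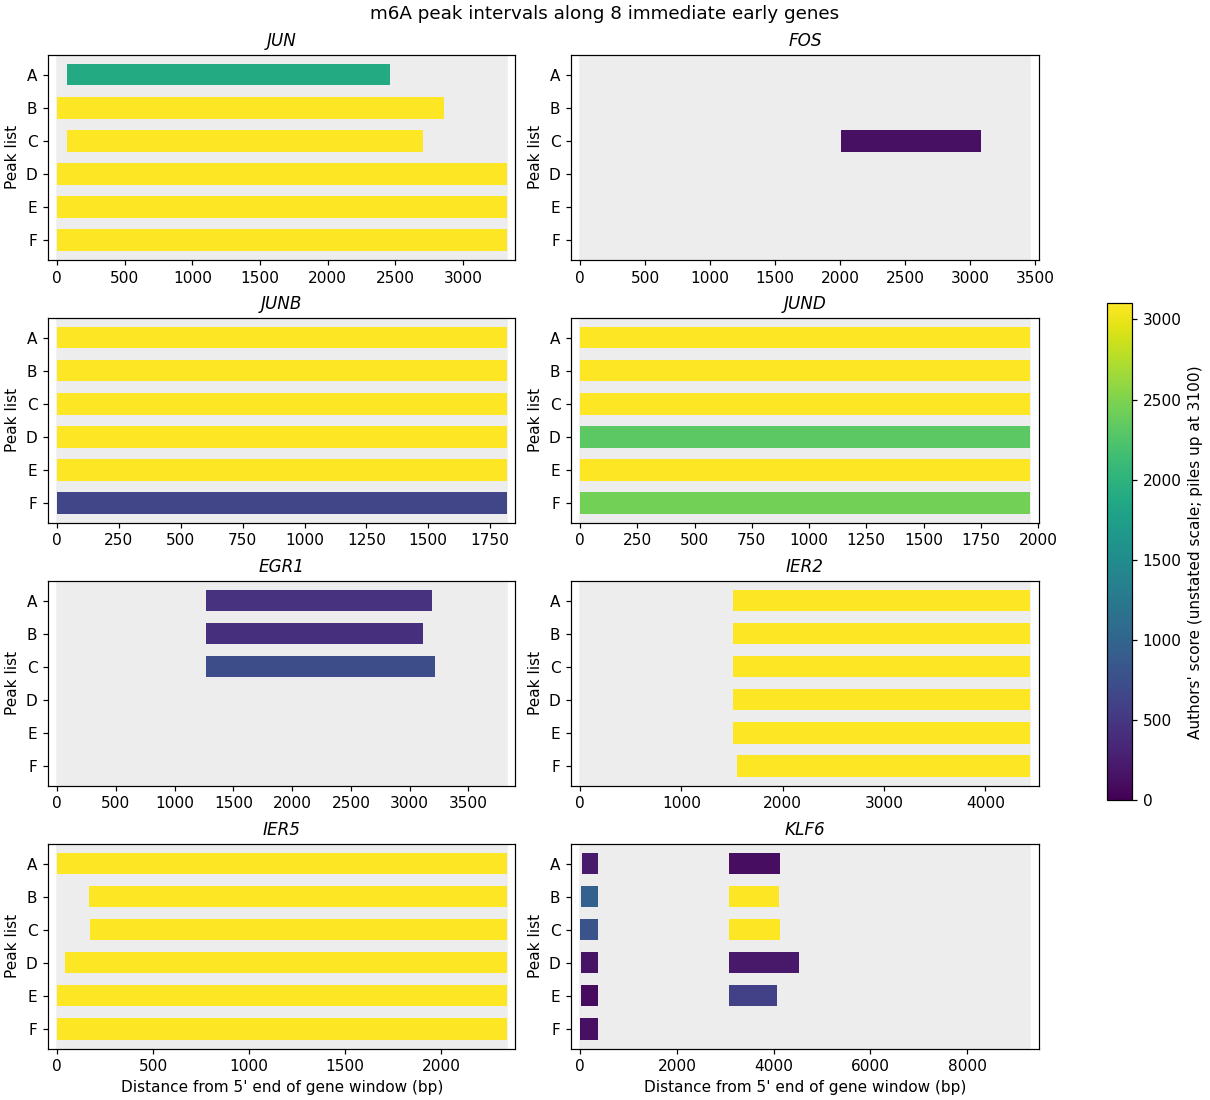
Peak intervals of lists A to F (rows) along the 8 gene windows, as distance in bp from the 5′ end of the window (x axis, grey band for the window). Bar colour is the authors' score. JUNB and JUND are filled in all lists, JUN and IER5 in 3 lists each, IER2 from base 1508 or 1551 onwards, KLF6 holds 2 separate intervals in 5 lists, and EGR1 and FOS are empty in D, E and F.

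KLF6 differed from the genes above in having 2 separate intervals. Its window is chr10:3818188-3827473 on the minus strand, 9286 bp long. A short interval at the 5′ end was present in all lists. It ended at base 369 of the window in each of them and began at base 1 in C and F, 19 in B, 22 in E, 23 in D and 32 in A. A longer interval began at base 3068 in A, B, C, D and E and ended at base 4074 in E, 4115 in B, 4127 in C, 4135 in A and 4523 in D. Their facing boundaries were the same in all 5 lists, with 2698 bp between them, and their peak numbers, which run along the chromosome, were consecutive. The 2 intervals were therefore listed under 2 numbers with no other number between them. Whether they come from 1 stretch of enrichment was not tested. List F held no interval at the longer one's place; 3.05% of joined regions were held by A to E and not by F. In all, 4.0% of the KLF6 window was covered in F and 14.6% to 19.4% in the other lists. The windows are genomic spans and include any introns, so a share of a window is not a share of a transcript. Exon positions were not analysed.

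The scores of KLF6 differed widely between lists. The 5′ interval scored 935.94 in B and 797.57 in C, and lower elsewhere, with 206.81 in A, 156.88 in D, 121.7 in F and 87.1 in E. The longer interval scored 3100 in C, 3092.03 in B, 585.85 in E, 201.09 in D and 101.12 in A. The longer interval had the higher score in B, C, D and E, and the 5′ interval in A. By its higher interval, KLF6 stood at percentile 94.8 in C, 88.2 in B, 83.2 in E, 51.9 in D, 44.7 in A and 34.2 in F.

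EGR1, which encodes a zinc finger factor induced by serum, had 1 interval in each of A, B and C. Its window is chr5:137801181-137805004 on the plus strand, 3824 bp long. The interval began at base 1266 in all 3 lists and ended at base 3189 in A, 3115 in B and 3218 in C, so that 48.4% to 51.1% of the window was covered. It scored 717.03 in C (percentile 66.2), 437.87 in A (percentile 66.7) and 432.76 in B (percentile 53.4). These ranks are above the middle of each list and below those of the Jun genes. Of all joined regions, 12.3% were held by A, B and C and by no other list.

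FOS, whose protein pairs with Jun proteins in AP-1, had a single interval, in C. Within the plus strand window chr14:75745481-75748937 (3457 bp) it spanned bases 2006 to 3084, 31.2% of the window. Its score was 126.15, at percentile 20.9. Of all joined regions, 6.79% were held by C alone.

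What the missing intervals of EGR1 and FOS hide can be read only in part. Peak numbers run along the chromosome and the deposited lists keep only some of them, with no score under 70. Around the EGR1 window, the nearest listed intervals on either side were 554.5 kb apart in D and in E and 560.2 kb apart in F, and 63, 104 and 75 numbers between them were not listed. Around FOS the unlisted numbers were 8 for A, 19 for B, 66 for D, 67 for E and 53 for F. A call at EGR1 or FOS that scored under the authors' minimum could be among these numbers, so the lists do not show that no call was made. Such counts cannot be compared between lists. Around JUN they were 44, 48 and 41 for A, B and C and 378, 573 and 345 for D, E and F. Around JUND they were 23, 27 and 19 for A, B and C and 3, 22 and 5 for D, E and F.

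**Figure D4:**
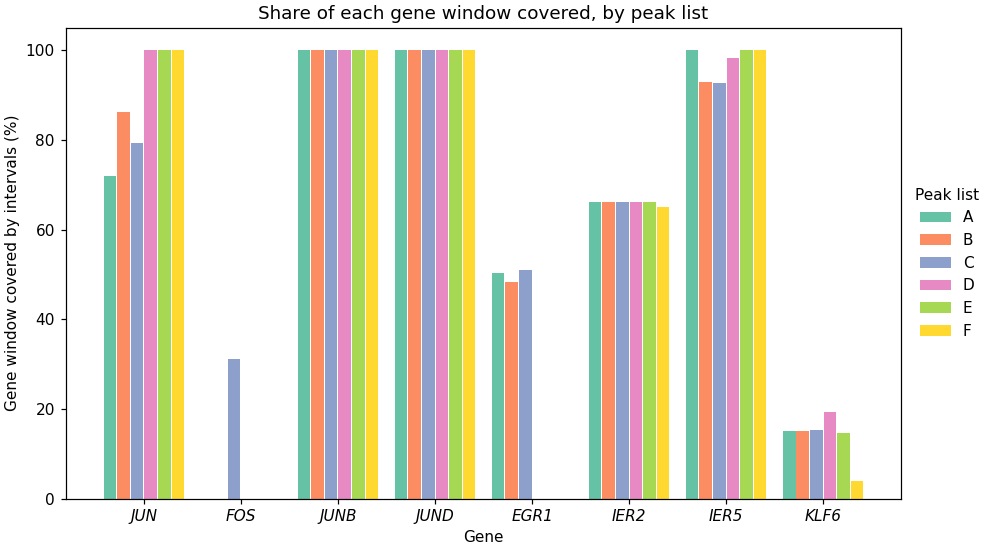
Share of each gene window covered by intervals (y axis, percent, bars from 0) for the 8 genes (x axis) in peak lists A to F (colours, in this order from left to right). JUNB and JUND are at 100% in all lists, IER2 lies between 65.1% and 66.0%, KLF6 between 4.0% and 19.4%, and EGR1 and FOS are at 0 where they have no bar. Windows are genomic spans that include any introns, so the shares are not shares of a transcript.

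Ordered by median percentile over the lists, with 0 where a list held no interval, IER2 and IER5 came first with 98.6 each, then JUND with 97.6, JUN with 97.0, JUNB with 96.4, KLF6 with 67.6, EGR1 with 26.7 and FOS with 0. The ranges of IER2, IER5, JUND, JUN and JUNB over lists overlap, from 92.6 to 99.4 for JUN and from 87.8 to 99.2 for JUNB, and their order rests on a few values off 3100. KLF6 ranged from 34.2 to 94.8 and overlapped all of these as well as EGR1 in A, B and C. Each gene was also set beside every other region of the series by the Euclidean distance between their 6 percentiles. IER2 and IER5 were at distance 0 from each other and from 19 regions outside the 8 genes, the first in genome order being chr1:171501482-171502100 (plus strand). This distance follows from the tie at 3100 in every list, where tied intervals share a percentile. Such ties also enter the distances of JUN, JUNB and JUND. The nearest outside region was chr5:43174549-43176426 (plus) for JUN at a distance of 2.07, chr4:13615820-13616434 (minus) for JUNB at 0.840, and chr12:112459954-112461024 (plus) for JUND at 0.880. For EGR1 it was chr10:121275021-121275164 (minus) at 1.63, and for FOS chr1:110251103-110251931 (plus) at 0.020, with 1 other region tied. The FOS distance rests on list C alone. For KLF6 the nearest was chr13:21547593-21549503 (minus) at 21.5. Its 6 percentiles mix 2 regions, the 5′ interval in A and F and the longer interval in B, C, D and E. Each outside region was taken singly, so the KLF6 distance is not like the others.

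Little else lay near these genes. Within 5000 bp of the 8 windows, 3 further intervals were listed, all on the strand opposite to the gene. The interval from 13260313 to 13261127 on the minus strand of chromosome 19, 154 bp before the IER2 window, was held by A with a score of 115.6 and by B with 689.92. In the RefSeq annotation the gene next to IER2 on that side is STX10. The other, in B, lay 3508 bp past the JUNB window and scored 97.15.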

How the data were processed

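The 6 peak lists of the series were analysed, each giving position, strand, peak name and score. The submitters' processing notes name hg19 as the build and HISAT2 2.0.4 as a tool. Peak names have the default form of MACS, per the file contents; its settings, and the libraries that went into a list, are unstated. The score that the authors deposited for a peak has a lowest value between 70.0 and 70.08 in each list. Starts were made 1-based. Percentiles, joined regions and covered lengths were computed with Python 3.11.15 (numpy 2.4.6, pandas 2.3.3, matplotlib 3.10.9, scipy 1.17.1). The code was checked on 2000 simulated regions, where 10 of 10 known values were recovered, and bedtools 2.31.1 gave the same 45 intervals and 20742 regions. The RefSeq promoter table (GRCh38.p14) was matched by symbol only.

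The 8 genes, their windows and the measures were chosen with earlier results of these data known, and the promoter motifs CArG, TGACG and TATAA after the lists had been seen. All 8 genes are named. Other immediate early genes, transcript features and motifs within intervals were not analysed here. Without counts, no interval or detection limit is given. Alternatives were a stricter score, lists of equal length, strand ignored, a larger overlap, other ranks of ties, a tolerance on boundaries and each list left out.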

Additional observations from a re-analysis of the deposited data

How the results depend on the processing

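Of 72 values recomputed under the alternatives, 63 stayed within their limit (1.5 times for counts, the 95% binomial interval for medians and percentages, which treats genes, lists and regions as independent). The 9 others all concern the share of regions of the whole series held by all lists, 8.30% as deposited. It was 5.08% when only intervals scoring at least 260.4 (the median over all lists) were kept, 11.8% with 4530 intervals per list, 7.41% with 50% reciprocal overlap, and 9.09% to 11.6% when single lists were dropped. Fewer intervals or fewer lists enter by construction, except under reciprocal overlap, which uses all of them and changes only how regions are matched. The genes with an interval in all lists numbered 6 as deposited and 5 with the stricter score or equal length, where KLF6 was in 3 lists (B, C and E) or 5 lists (all but A), FOS in none and EGR1 in 3 lists or 2 lists (A and C). Without A or without F, 3 genes were at 3100 in all remaining lists, and without F, 3 genes had equal boundaries; as deposited it was 2 for each. No paired analysis was possible because the GEO record and the list names disagree, so that no list could be put in a treatment arm. Depth is unknown, and a gene missing from a list may lie under the authors' minimum score.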
